A study of Mus musculus with 6 samples.

Results

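The microRNA processing and silencing machinery was described through 10 genes: Drosha, Dgcr8, Xpo5, Dicer1, Ago1, Ago2, Ago3, Tnrc6a, Tnrc6b and Tnrc6c. Their probes were found by matching each probe's RefSeq accession, without its version, to the mouse gene symbol. This gave 23 of the 41174 non-control probes of the array and 10 of the 18353 genes named on it. Gene expression was measured on 6 one-colour Agilent arrays of primary astrocytes from the cerebral cortex of C57BL/6 mouse fetuses of embryonic day 18, a culture bought from a supplier. In 3 samples the cells had received precursors of the 3 miR-29 family members a, b and c in the proportion 1 to 2 to 1. In the other 3 they had received a negative control precursor. Both were given at 80 nM with a lipid reagent 3 weeks after plating, and RNA was taken after 48 h. The labels call the 3 samples of a group extraction replicates and name no separate cultures. The p-values therefore reflect the spread among these samples alone, and that spread may be technical. The labels also report that a fluorescent precursor entered most cells.

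MicroRNAs are cut out of long transcripts in the nucleus by the enzyme Drosha with its RNA-binding partner Dgcr8. The hairpin that results is carried to the cytoplasm by exportin 5, the product of Xpo5, and is cut again by Dicer1 into a short duplex. One strand is loaded into an Argonaute protein, and the Argonaute recruits a GW182 protein, encoded by Tnrc6a, Tnrc6b or Tnrc6c, which brings in the enzymes that shorten the poly(A) tail, remove the cap and degrade the message. A transfected precursor enters this pathway at its last steps, where it shares the Argonautes and the GW182 proteins with the microRNAs of the cell. Whether the precursors used here also pass through Dicer1 was not tested. The design asks which transcripts differ once miR-29 is raised. The array files used here were read for messenger RNA probes, and the level of miR-29 itself was not analysed here.

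The mature sequences of the transfected family are shown because they define what was added to the cells. They are the mouse sequences of RefSeq (build GRCm38.p6), while the labels give the precursors as the human ones. Capitals mark the seed, bases 2 to 8 from the 5′ end, which is the main determinant of target pairing.
miR-29a-3p: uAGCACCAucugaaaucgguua
miR-29b-3p: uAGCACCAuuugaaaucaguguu
miR-29c-3p: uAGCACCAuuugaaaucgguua
The seed AGCACCA was the same in the 3 sequences, and of the 1679 mature mouse microRNAs in the table these 3 were the ones that hold it. miR-29a and miR-29c differed at 1 position, C10U, counted from 1 at the 5′ end with the base of miR-29a first. miR-29b differed from miR-29a at C10U, G18A, U21G and A22U within the first 22 bases. The gene of miR-29a lies on chr6:31062673-31062694 (minus strand), and that of miR-29c on chr1:195037600-195037621 (plus strand). miR-29b comes from a gene beside each of them, on chr6:31063025-31063047 (minus strand) and on chr1:195037091-195037113 (plus strand).

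All 10 astrocyte markers listed were well above background on all 6 arrays. That does not single out astrocytes, since most fibroblast, meningeal and mural markers and most oligodendrocyte lineage markers were too. The summed astrocyte signal before scaling was 52718 to 62201 with miR-29 and 34910 to 44745 in control. It was below the fibroblast, meningeal and mural sum on every array, but sums over different probes do not compare the amounts of cell types. The largest signals in the fibroblast, meningeal and mural sum were those of Acta2 and Col1a1. These moved in opposite directions, with log2 fold changes of 0.61 for Acta2 and -1.30 for Col1a1. Of the 10 astrocyte markers 6 rose and 1 fell, beside 34.0% and 23.5% of all tested probes. Oligodendrocyte lineage markers had 4 calls higher and 3 lower, and fibroblast, meningeal and mural ones 2 and 2. Microglia had 1 and 2, neuron 1 and 3, and endothelial 1 and 0. Of 6 microglia markers 3 were above background on all arrays, and Aif1 and Cx3cr1 on none. Their summed signal was 1670 to 1980 with miR-29 and 2233 to 2798 in control. The corresponding ranges were 2431 to 2851 and 2417 to 3273 for 8 neuron markers (5 above background on all arrays), and 1429 to 1731 and 1496 to 1981 for 8 oligodendrocyte lineage markers (7 above background on all arrays, Mog on none). They were 81.6 to 97.6 and 67.1 to 115 for 5 endothelial markers (2 above background on all arrays, Tek on none), and 194864 to 213470 and 192939 to 240356 for 7 fibroblast, meningeal and mural markers (6 above background on all arrays, Rgs5 on none). The part of these cells in the results below was not tested. In such bulk RNA, fewer cells of a type and less RNA per cell cannot be told apart. The 3 miR-29 arrays and control replicate 1 were on slide 1, and control replicates 2 and 3 on slide 2, so every comparison within a slide rests on 1 control array.

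Most of the machinery was at a similar or modestly higher level in the miR-29 samples. Of the 23 probes 12 rose, 1 fell and 10 did not pass the threshold (adjusted p under 0.05, limma). The rises came from 8 of the 10 genes, with Dgcr8 and Tnrc6c as the genes without any call. One of the 8, Ago3, is counted through a single probe that passed the filter on dim probes only by its miR-29 arrays, and with the stricter filter Ago3 has no call. Among all 26427 tested probes 34.0% were called higher and 23.5% lower, 57.5% in all, so 52.2% higher and 4.35% lower among the 23 is read against that. The median log2 fold change, miR-29 minus control, was 0.30 over the 23 probes and 0.061 over all tested probes. The single probes ranged from -0.67 for Ago1 to 0.95 for Ago3, and no estimate reached a 2-fold difference. After each array was scaled to its 75th percentile, all miR-29 arrays lay above all control arrays for 15 of the 23 probes and below them for 1. These counts stand beside 38.6% and 27.2% of all tested probes. All 23 passed the filter on dim probes, 22 of them on all 6 arrays.

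**Figure D1:**
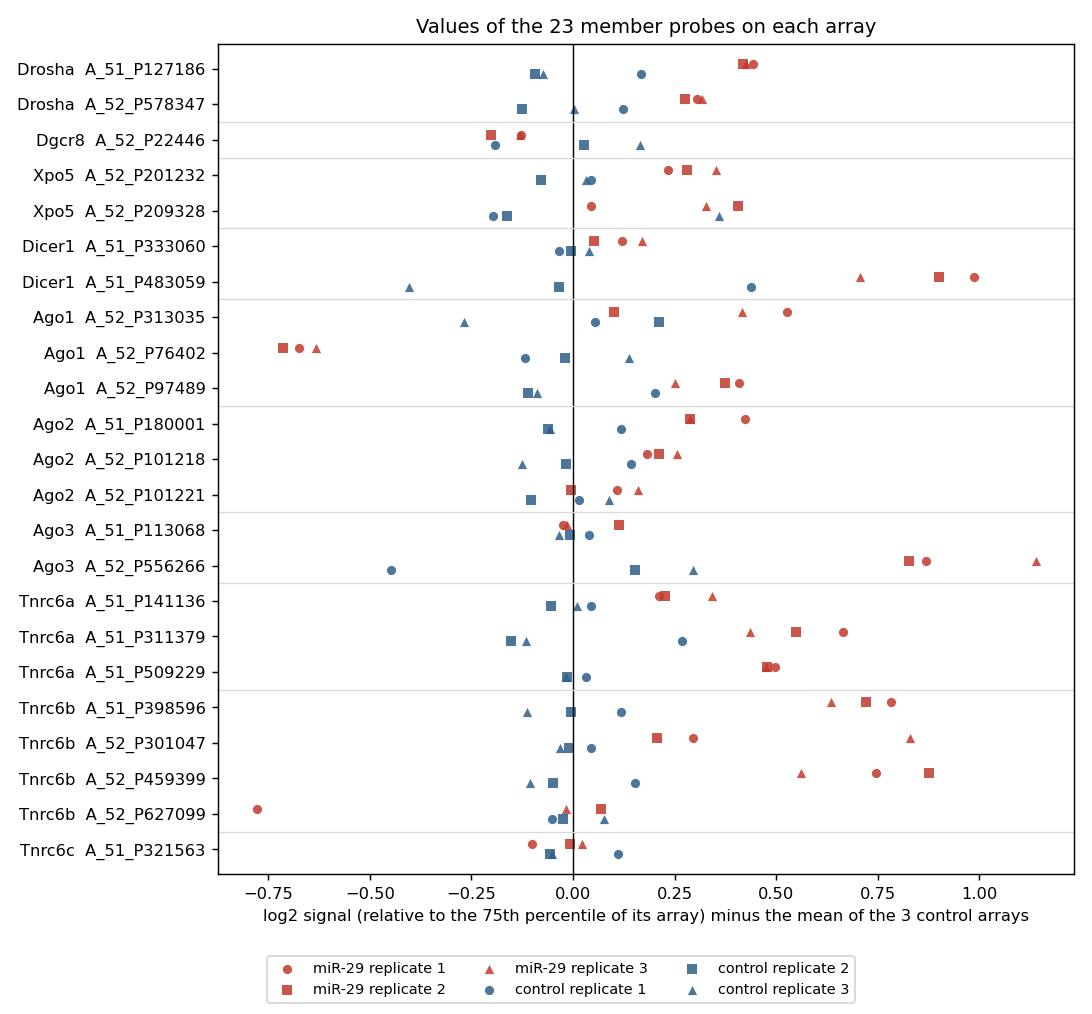
Each row is a probe of a member gene, and each point is its scaled log2 signal on an array minus the mean of the 3 control arrays (red miR-29, blue control, marker shape the replicate number). The 3 miR-29 arrays lie to the right of the 3 control arrays for 15 probes and to their left only for the Ago1 probe A_52_P76402.

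The scale matters for effects of this size. Spike-in RNA of known amount had been added to each sample, and 6 of its 10 types were well above background on all arrays. When the arrays were scaled to these 6 types instead, every log2 fold change moved down by 0.24, and the median of the 23 probes went from 0.30 to 0.061. Then 6 probes remained higher and 3 were lower (14.9% and 38.5% of all probes). The 6 were 1 of Dicer1, 1 of Ago3, 2 of Tnrc6a and 2 of Tnrc6b, and the 3 were Ago1, Dgcr8 and Tnrc6c. In a fit with slide as a blocking term (the slide-block fit), where the estimate rests on the control array of slide 1, 5 probes were higher and 1 lower (25.9% and 18.7% of all probes).

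**Figure D2:**
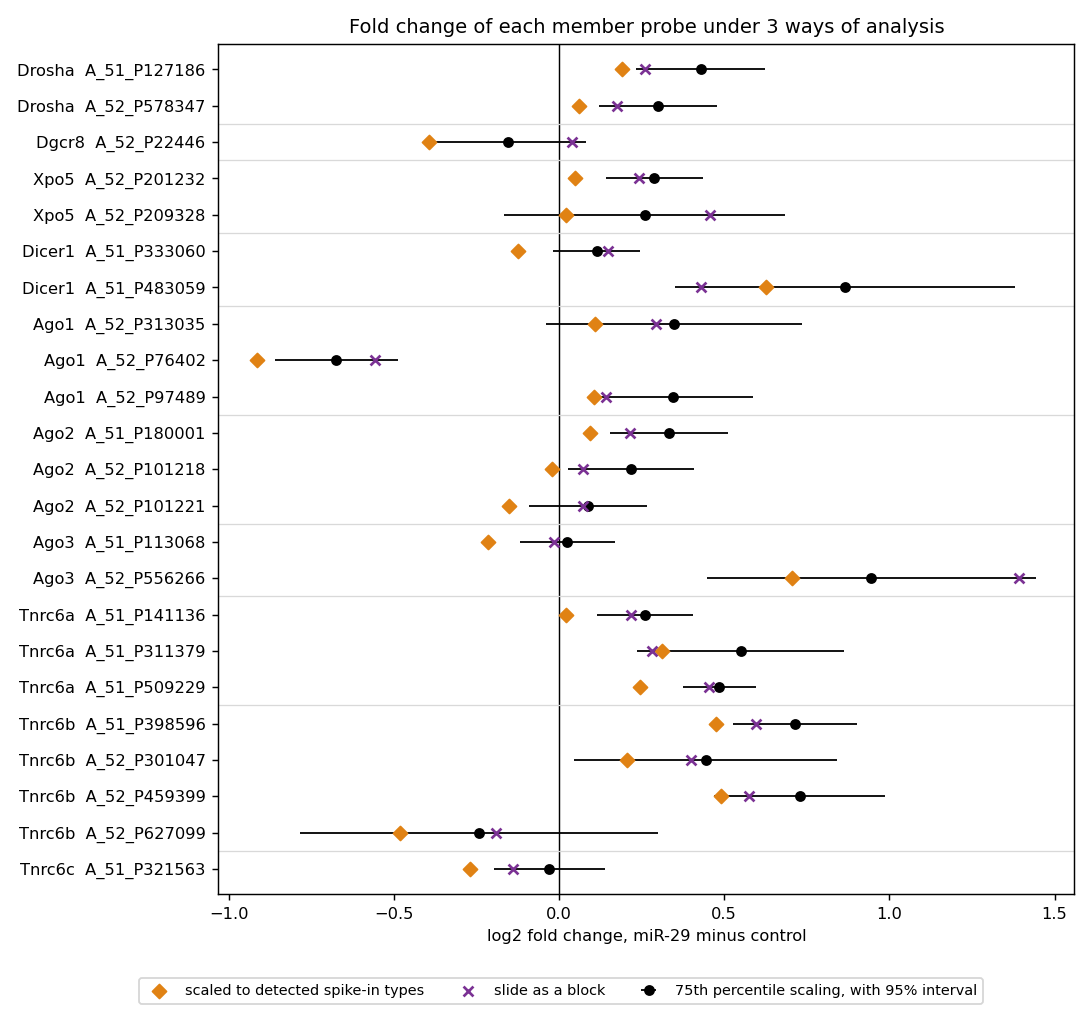
Log2 fold change, miR-29 minus control, of each member probe: black points with their 95% interval are scaled to the 75th percentile, orange diamonds to the detected spike-in types, and purple crosses come from the slide-block fit. The Tnrc6b probes A_51_P398596 and A_52_P459399 lie to the right of 0 and the Ago1 probe A_52_P76402 to its left in all 3, while the diamonds of Xpo5 and Ago2 lie near 0.

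Drosha, the nuclear nuclease that makes the first cut, was higher with both of its probes. The signal of A_51_P127186 was 8373, 9519 and 9835 in miR-29 replicates 1, 2 and 3, against 6864, 5717 and 7645 in the control replicates; signals are given in this order throughout, before scaling. The groups did not overlap, and the log2 fold change was 0.43 (SE 0.0805, adjusted p = 0.0051, n = 3 per group), a 1.35-fold rise. The signal of A_52_P578347 was 734, 831 and 879 against 642, 538 and 777. These overlapped before scaling and not after it, and the probe rose by 0.30 (SE 0.0732, adjusted p = 0.0141). With spike-in scaling neither passed (0.19, adjusted p = 0.0741, and 0.061, adjusted p = 0.547), and in the slide-block fit the first did (0.26, adjusted p = 0.0152) and the second did not (0.18, adjusted p = 0.104).

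Dgcr8, the partner that holds the hairpin for Drosha, has 1 probe, A_52_P22446. Its signal was 244, 268 and 290 with miR-29 and 232, 269 and 391 in control. The groups overlapped, and control replicate 3 was the highest array. The log2 fold change was -0.15 (SE 0.0965, adjusted p = 0.211), with a 95% interval from -0.39 to 0.080. A rise of the size seen for Drosha lay outside the interval, though the difference between the genes was not tested. Dgcr8 was called lower with spike-in scaling (-0.39, adjusted p = 0.0367) and without control replicate 1 (-0.25, adjusted p = 0.0179). The log2 fold change was 0.038 within slide 1.

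Xpo5, the exporter of the hairpin, had signals of 902, 1076 and 1164 with miR-29 and 785, 719 and 1025 in control for the brighter probe, A_52_P201232. After scaling the groups did not overlap, and the probe rose by 0.29 (SE 0.0603, adjusted p = 0.00775). The rise was not past the threshold with spike-in scaling (0.050, adjusted p = 0.656) or in the slide-block fit (0.24, adjusted p = 0.0572). The other probe, A_52_P209328, read 13.4, 19.9 and 19.4 against 11.2, 11.5 and 21.8. These values lie close to the lowest signal well above background, which was 8.33 to 10.5 on the 6 arrays. Its log2 fold change of 0.26 did not pass (SE 0.175, adjusted p = 0.243), and without control replicate 3, the highest array, it was 0.44 and did (adjusted p = 0.0331).

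Dicer1, which cuts the hairpin into the mature duplex, gave different results with its 2 probes. A_51_P333060 read 357, 393 and 439 with miR-29 and 317, 323 and 441 in control. After scaling the groups did not overlap, but the log2 fold change was only 0.11 (SE 0.0543, adjusted p = 0.116, 95% interval -0.018 to 0.25). A_51_P483059 read 240, 261 and 235 against 163, 117 and 120, with all miR-29 arrays above all control arrays. It rose by 0.87 (SE 0.212, adjusted p = 0.0142), a 1.82-fold rise. This rise was 0.63 with spike-in scaling (adjusted p = 0.0228), and it was 0.43 and not past the threshold in the slide-block fit (adjusted p = 0.106). Control replicate 1, on the slide of the miR-29 arrays, was the highest of the control arrays for this probe.

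The Argonautes hold the mature microRNA, and Ago2 is the one of them known as an efficient slicer of fully paired targets. Ago1 was the member with a fall. Its probe A_52_P76402 read 133, 150 and 163 with miR-29 and 194, 208 and 306 in control, and the groups did not overlap before or after scaling. The log2 fold change was -0.67 (SE 0.0766, adjusted p = 0.000705, n = 3 in each group), so the control level was 1.60-fold the miR-29 level. The value was -0.91 with spike-in scaling (adjusted p = 0.000753) and -0.56 in the slide-block fit (adjusted p = 0.00568). The other Ago1 probes went the other way. A_52_P97489 read 58.1, 65.5 and 62.0 against 49.9, 40.1 and 53.7 and rose by 0.34 (SE 0.0996, adjusted p = 0.0259). That rise was lost when replicate 1 or 2 of miR-29, or replicate 2 or 3 of the control, was left out (0.29 to 0.33, adjusted p up to 0.0815), with normexp background correction (0.18, adjusted p = 0.144), with no filter on dim probes (adjusted p = 0.0617), with spike-in scaling (0.11, adjusted p = 0.31) and in the slide-block fit (0.14, adjusted p = 0.2). A_52_P313035, at 21.4, 18.4 and 23.5 against 15.3, 17.0 and 16.1, overlapped after scaling, and its value of 0.35 did not pass (SE 0.16, adjusted p = 0.106). This probe lies close to background, and its value with normexp was 0.15 (adjusted p = 0.388).

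Ago2 was measured by 3 probes. A_51_P180001 read 389, 409 and 421 with miR-29 and 312, 275 and 364 in control, without overlap. It rose by 0.33 (SE 0.074, adjusted p = 0.00991), and did not pass with spike-in scaling (0.094, adjusted p = 0.239) or in the slide-block fit (0.21, adjusted p = 0.0761). A_52_P101218 read 60.4, 71.1 and 75.4 against 58.3, 52.0 and 63.7 and gave 0.22 (SE 0.0785, adjusted p = 0.0544), which turned to -0.022 with spike-in scaling. It was past the threshold without control replicate 1 (0.29, adjusted p = 0.00769) and with the stricter filter on dim probes (adjusted p = 0.0487). With that filter fewer probes were tested and the SE was 0.0774. A_52_P101221 read 190, 203 and 234 against 176, 162 and 245 and gave 0.088 (SE 0.0735, adjusted p = 0.336, 95% interval -0.091 to 0.27). So 1 of the 3 passed, and the 3 estimates lay between 0.088 and 0.33.

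Ago3 was dim. A_51_P113068 read 16.3, 20.8 and 19.6 against 16.9, 16.4 and 21.2, and its log2 fold change was 0.025 (SE 0.0588, adjusted p = 0.73). A_52_P556266 read 19.6, 21.9 and 28.0 with miR-29 and 7.78, 11.8 and 17.2 in control, where control replicate 1 was not well above background. The estimate was 0.95 (SE 0.204, adjusted p = 0.00886), against a control group partly at background. The probe entered the test only through the miR-29 arrays, and the stricter filter leaves it untested. With normexp background correction, which compresses dim signals, it was 0.18 and did not pass (adjusted p = 0.118). Scaling to the detected spike-in types moved it less, to 0.71 (adjusted p = 0.0399). Within slide 1 it was 1.39, but the only control array there is control replicate 1, which was not well above background.

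The GW182 genes encode the scaffold between Argonaute and the deadenylases, and they held the clearest rises. Tnrc6a rose with all 3 of its probes. A_51_P509229 read 1447, 1649 and 1693 with miR-29 and 1038, 1004 and 1321 in control, and after scaling the SD over the 3 arrays was 0.0125 with miR-29 and 0.0277 in control on the log2 scale. It rose by 0.48 (SE 0.0455, adjusted p = 0.00035), a 1.40-fold rise, and by 0.25 with spike-in scaling (adjusted p = 0.0179). A_51_P141136 read 1286, 1501 and 1675 against 1135, 1059 and 1462. It rose by 0.26 (SE 0.0593, adjusted p = 0.0109), which did not pass with spike-in scaling (0.021, adjusted p = 0.85) or in the slide-block fit (0.22, adjusted p = 0.0744). The dim probe A_51_P311379, at 40.2, 42.8 and 40.7 against 30.2, 22.5 and 30.5, rose by 0.55 (SE 0.129, adjusted p = 0.012). It was 0.18 with normexp (adjusted p = 0.196) and 0.28 in the slide-block fit (adjusted p = 0.0725).

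Tnrc6b had the member rises with the smallest adjusted p after that of Tnrc6a. A_51_P398596, which carries the annotation NM_144812, read 1148, 1270 and 1231 with miR-29 and 718, 657 and 805 in control, so each miR-29 array was above each control array. It rose by 0.71 (SE 0.0773, adjusted p = 0.000589), a 1.64-fold rise. The other 3 probes carry NM_177124. Of these A_52_P459399 read 133, 169 and 139 against 87.6, 76.0 and 96.5 and rose by 0.73 (SE 0.106, adjusted p = 0.00189). A_52_P301047, at 22.2, 24.1 and 38.3 against 18.5, 17.8 and 23.1, had 0.44 and did not pass (SE 0.164, adjusted p = 0.058). It was past the threshold without miR-29 replicate 2 (0.56, adjusted p = 0.0414) and without miR-29 replicate 3, the highest array (0.25, adjusted p = 0.0242). A_52_P627099 read 51.2, 106 and 103 against 83.9, 85.3 and 121. Its log2 fold change of -0.24 did not pass (SE 0.223, adjusted p = 0.38), and miR-29 replicate 1 was the low array: without it the value was 0.025. The rises of A_51_P398596 and A_52_P459399 were 0.47 and 0.49 with spike-in scaling (adjusted p = 0.00109 and 0.00564) and 0.60 and 0.58 in the slide-block fit (adjusted p = 0.00491 and 0.019).

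Tnrc6c, the third paralog, has 1 probe, A_51_P321563. It read 349, 431 and 452 with miR-29 and 401, 357 and 472 in control, and the groups overlapped. The log2 fold change was -0.029 (SE 0.0688, adjusted p = 0.734), with a 95% interval from -0.20 to 0.14. The estimates for Tnrc6a and for the 2 called probes of Tnrc6b lay above it. The interval of the Tnrc6a probe A_51_P141136 (0.12 to 0.40) overlapped it, and differences between the genes were not tested. With spike-in scaling Tnrc6c was called lower (-0.27, adjusted p = 0.0364).

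Of the 23 probes, 2 kept their call in each of the 19 alternative fits that gave them a test, the Tnrc6b probe A_51_P398596 as higher and the Ago1 probe A_52_P76402 as lower. The adjusted p ranged up to 0.0126 for the first and 0.00568 for the second. Where probes of 1 gene went apart, the difference between them within each array was compared between the groups, which is free of the scaling. The 7 pairs were taken from these same data because their values differed by over 0.5 or in sign. Their size, the lack of overlap and the p-value below follow in part from that choice and are descriptions. They were in Dicer1, Ago1, Ago3 and Tnrc6b. For A_52_P97489 against A_52_P76402 of Ago1 the shift was 1.02 on the log2 scale, and 0.70 within slide 1. For the pair of Dicer1 it was 0.75, and 0.28 within slide 1, and for the pair of Ago3 it was 0.92, and 0.18 with normexp. For the 3 pairs of Tnrc6b, all with A_52_P627099, it was 0.69 to 0.97, and 0.24 to 0.76 with normexp. In all 7 the groups did not overlap and the exact permutation test gave p = 0.1 (0.1 after Benjamini-Hochberg adjustment over the 7), two-sided, which is the smallest value that 3 arrays against 3 can give. Which transcript forms these probes detect was not tested.

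The stretches upstream of the start sites are shown for Ago1, Tnrc6a and Tnrc6b. Ago1 fell with 1 probe, Tnrc6a rose with all 3 of its probes, and Tnrc6b rose with 2 of 4. RefSeq (GRCm38.p6) windows were found for 9 of the 10 members, 11 windows in all, and not for Ago2. Each sequence is the 250 bases before the annotated start, on the strand of the gene, and capitals mark the GC box GGGCGG or its reverse complement.
Ago1, chr4:126468632-126468881, minus strand: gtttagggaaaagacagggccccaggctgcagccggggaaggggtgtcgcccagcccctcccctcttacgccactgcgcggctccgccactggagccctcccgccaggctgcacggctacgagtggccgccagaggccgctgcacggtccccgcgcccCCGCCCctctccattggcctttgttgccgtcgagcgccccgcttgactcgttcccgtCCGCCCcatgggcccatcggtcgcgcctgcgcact
Tnrc6a, chr7:123123635-123123884, plus strand: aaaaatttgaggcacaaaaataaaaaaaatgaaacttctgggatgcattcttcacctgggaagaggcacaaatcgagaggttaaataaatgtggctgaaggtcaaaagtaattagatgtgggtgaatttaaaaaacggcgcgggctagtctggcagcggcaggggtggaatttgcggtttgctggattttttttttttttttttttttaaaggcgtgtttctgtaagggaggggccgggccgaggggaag
Tnrc6b, first start, chr15:80711063-80711312, plus strand: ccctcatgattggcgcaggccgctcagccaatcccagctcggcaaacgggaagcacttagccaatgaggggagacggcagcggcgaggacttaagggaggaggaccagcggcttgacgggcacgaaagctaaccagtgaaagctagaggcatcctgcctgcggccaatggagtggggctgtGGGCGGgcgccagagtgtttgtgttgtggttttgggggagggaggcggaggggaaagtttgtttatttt
Tnrc6b, second start, chr15:80798360-80798609, plus strand: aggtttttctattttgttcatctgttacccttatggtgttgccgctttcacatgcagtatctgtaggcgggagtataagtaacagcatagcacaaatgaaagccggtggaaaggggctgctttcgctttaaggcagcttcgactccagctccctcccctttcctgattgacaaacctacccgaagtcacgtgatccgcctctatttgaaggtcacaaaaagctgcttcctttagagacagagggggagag
The GC box, searched on both strands, occurred 2 times in the Ago1 window shown, 1 time at the first start of Tnrc6b and 0 times in the other windows shown. Among the 11 member windows 7 held it, from 6 genes; the other Ago1 window overlaps the one shown and holds the same 2 boxes. This count stands against 32.7% of 32851 promoter windows of this length. The TATA box, searched as TATAAA on both strands with no overlap with the GC box, occurred in 0 of the 11 windows and in 12.4% of all. Ago1 had 26 CpG dinucleotides in the window shown, Tnrc6a 9, and Tnrc6b 14 and 8, where the median of all windows was 6. These are descriptions of the letters and say nothing about the factors that bind there.

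The members were then set beside 93 other genes that act with microRNAs, of which 90 had a tested probe. With the brightest probe of each gene, 33 rose, 18 fell and 39 did not pass (34.1% and 23.5% of all genes and transcripts taken this way). The median log2 fold change of the 90 was 0.078, beside 0.19 for the members taken the same way. Scaled to the detected spike-in types, 9 of the 90 were called higher and 33 lower, beside 14.9% and 38.5% of all tested probes. Their median turned to -0.16, and that of all tested probes was -0.18 with this scaling. These shares, each for its own scaling, apply to each of the 4 groups below. Over all their probes 63 of 157 rose (40.1%) and 30 fell (19.1%).

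Among 23 tested processing cofactors 8 rose, 3 fell and 12 did not pass. Scaled to the spike-in types, 0 were called higher and 7 lower, and the median went from 0.088 to -0.15. Mettl3, a methyltransferase that marks primary microRNA transcripts, rose by 0.40 (SE 0.0577, adjusted p = 0.00179). Ddx17, a helicase of the Drosha complex, rose by 0.37 and by 0.39 with its other probe, and the cap-binding gene Ncbp1 by 0.32, with 0.21 (adjusted p = 0.0887) for its other probe. The calls of these 3 genes were lost with spike-in scaling, where they were 0.16, 0.13 and 0.085. Zc3h12a, a ribonuclease that degrades precursors, fell by 0.56 (SE 0.147, adjusted p = 0.0181), and by 0.29 in the slide-block fit, where it did not pass (adjusted p = 0.166). Lin28a and Lin28b, the inhibitors of let-7 maturation, were at background on every array.

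Of 23 tested partners and regulators of the silencing complex 11 rose, 4 fell and 8 did not pass. Scaled to the spike-in types, 4 were called higher and 8 lower, and the median turned from 0.12 to -0.12. The chaperone gene Hsp90aa1, whose product helps to load Argonaute, rose by 0.76 (SE 0.0737, adjusted p = 0.000392). Fxr1, an RNA-binding relative of the fragile X protein, rose by 0.58 and Gemin4, found in complexes with Argonaute, by 0.49. Limd1, a LIM-domain protein that bridges Argonaute and the cap, fell by 0.65, and by 0.91 with its other probe. These 4 kept their calls with spike-in scaling, where the values were 0.52 for Hsp90aa1, 0.34 for Fxr1, 0.25 for Gemin4 and -0.89 for Limd1.

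The next 22 genes encode the deadenylase complexes, which GW182 proteins recruit, and the poly(A)-binding proteins and factors that act with them. Of these 8 rose, 6 fell and 8 did not pass, with -0.039 as the median, and, scaled to the spike-in types, 2 were called higher and 11 lower (median -0.28). The 6 that fell were Cnot1, Cnot6l, Cnot8, Cnot9, Pan2 and Pan3. The 8 that rose were Cnot3, Cnot4, Cnot10, Cnot11, Tnks1bp1 and the poly(A)-binding genes Pabpc1, Pabpc4 and Pabpn1. The Cnot genes were thus called in both directions. Pan2, the catalytic subunit of the enzyme that starts the trimming, fell by 0.83 (SE 0.0842, adjusted p = 0.000459). Cnot1, the scaffold of the CCR4-NOT complex, fell by 0.58 with the brightest of its probes and by 0.34 with a dimmer one, while the remaining one gave -0.094 and did not pass (adjusted p = 0.352). Cnot9, the subunit that binds the tryptophans of GW182, fell by 0.56. Pabpc1, the poly(A)-binding protein, rose by 0.56 (SE 0.0762, adjusted p = 0.0014).

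Of 22 decapping and decay genes 6 rose, 5 fell and 11 did not pass. Scaled to the spike-in types, 3 were called higher and 7 lower, and the median went from 0.088 to -0.15. Eif4e2, a cap-binding protein that represses translation, had the largest change of the pathway genes named by their brightest probe. It fell by 1.21 (SE 0.0571, adjusted p = 4.51e-05), by 1.33 and 0.56 with 2 other probes, while its remaining probe rose by 0.36. Dimmer probes of other genes also moved strongly. Paip1 of the preceding group rose by 1.84 with A_52_P159060, while its brightest probe gave -0.21 and did not pass. Lsm6, counted as a rise by its brightest probe (0.16), fell by 1.23 with A_52_P422755 and by 0.95 with A_51_P152802. Lsm14a, a P-body protein, fell by 0.63. Dcp1b, a decapping activator, rose by 0.69, and Xrn1, the exonuclease that degrades decapped messages, rose by 0.59 and by 0.84 with its other probe.

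**Figure D3:**
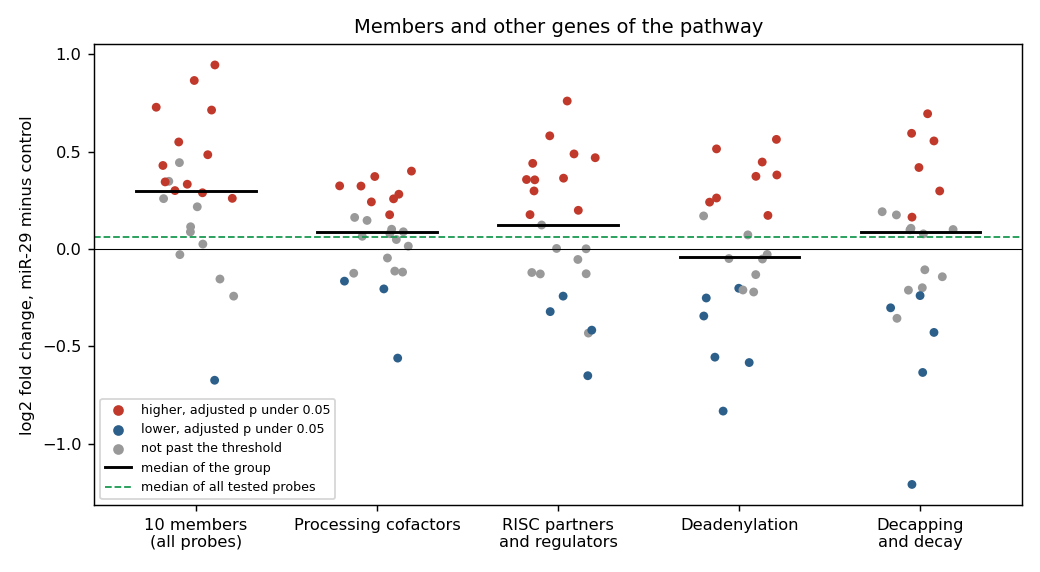
Log2 fold change, miR-29 minus control, of the 23 member probes and of 90 other pathway genes in 4 groups, with the brightest probe of each gene; red and blue points passed the threshold as higher or lower, grey points did not. Black bars are group medians (0.30 for the members) and the green dashed line is the median of all tested probes (0.061). The member bar covers all 23 probes, so it is not like the other bars. With 1 probe a gene the member median was 0.19. Colours and medians are those of the 75th percentile scaling.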

How the data were processed

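Per the file headers, Agilent Feature Extraction 10.7.3.1 read the spot intensity (version 10.7 in the submitters' processing notes) and gave a background-subtracted processed signal on a linear scale. In the table of values that the authors deposited, this intensity is multiplied by 1 factor per array (2.63 to 3.43), by a rule not given in the sources used here, and there were 0 columns of other samples. By array, 61.95% to 66.8% of probes stood well above background and the 75th percentile ran from 473.7 to 625.6, while 0 probes were saturated. The number of arrays, 3 per group, limits the precision.

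Here the processed signal was floored at 1, put on the log2 scale and set against the 75th percentile of its array. Groups were compared with limma 3.58.1 (lmFit, eBayes; R 4.3.3). Tests were two-sided, and p-values were adjusted by Benjamini-Hochberg over the 26427 probes that in 1 group or both were well above background on every array. Outlier-flagged spots and control spots were left out, spots of 1 probe were averaged, and probes of a gene were kept apart. Of 41174 probes 26933 matched 1 symbol and 14241 none, through the RefSeq table of GRCm38.p6; the array design is on mm9, so no gene coordinates of that table are given. Upstream windows and motifs were read with pandas 2.3.3. Named from the pathway list were up to 4 genes per group past the threshold with the largest change and no overlap between groups, by their brightest probe. The members and lists were chosen with earlier results of these data known. The fit was run on simulated data with independent noise and few changed probes. These held no slide or scaling difference, so the run says nothing about either. Alternatives are given in the closing section; normexp used the median spot and background intensity in the deposited files, since those hold no mean spot signal.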

Additional observations from a re-analysis of the deposited data

How the results depend on the processing

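Of the 23 member probes 12 were higher and 1 lower, with a median of 0.30. The counts stayed within 1.5 times these under normexp, quantile and median scaling, the deposited table, both filters and the trend variance model, although normexp lowered the median to 0.18. Scaled to the detected spike-in types, 6 were higher and 3 lower with a median of 0.061, and scaled to all spike-in spots, 6 and 2 with 0.11. With 1 probe a gene, which leaves 10 probes, 5 were higher (median 0.19). With the slide as a block 5 were higher, and its median, 0.22, is that within slide 1 by construction, since slide 2 holds control arrays alone. Leaving out 1 array gave 11 to 13 higher, 1 to 2 lower and medians of 0.25 to 0.36; the 2 lower were without control replicate 1. Detected spike-in types with the slide as a block, chosen after seeing the data, left 2 higher (median 0.041), and turned the second Drosha probe to -0.0004 and the Ago1 probe A_52_P97489 to -0.033, neither past the threshold. Of the pathway probes, 63 higher and 30 lower, 21 and 50 were called with the detected types, 22 higher with all spike-in spots, 33 and 18 with 1 probe a gene, and 12 higher with the detected types and slide together; without 1 array 48 to 69 were higher and 23 to 36 lower. Over all probes, 8993 higher and 6205 lower, these were 3947 and 10164 with the detected types, 4337 higher with all spike-in spots and 2916 higher with types and slide together; without 1 array 7236 to 9687 and 5053 to 7556. The cause of the scaling difference was not tested.

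The replicate number as a block changed no call of a member and again gave 12 higher and 1 lower. Same-numbered arrays correlated in their deviations at 0.143, 0.099 and 0.271, and each array correlated best with its own number, a hint from the data that the labels do not state. The Ago3 probes, the second Xpo5 probe, the Ago1 probe A_52_P313035 and the Tnrc6b probe A_52_P301047 lie close to background.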

Other observations

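Some genes of the same complexes were picked out after their values were seen. Ago4, the remaining Argonaute, had 4 tested probes, and A_52_P27117, A_52_P27122 and A_52_P8444 rose by 0.31, 0.38 and 0.86 (adjusted p = 0.00335, 0.00631 and 0.015), while A_52_P525027 had -0.43 and did not pass (adjusted p = 0.331). A_52_P8444 was well above background on 2 of 3 control arrays, so it passed the filter only through the miR-29 group. With spike-in scaling A_52_P27117 and A_52_P27122 lost their calls (adjusted p = 0.465 and 0.234) and A_52_P8444 did not (0.62, adjusted p = 0.0249), while in the slide-block fit A_52_P8444 lost it (0.69, adjusted p = 0.13). With normexp none of the 3 was called (adjusted p = 0.0571 to 0.241). The Dicer1 partners Tarbp2 and Prkra had log2 fold changes of 0.065 and 0.015 (adjusted p = 0.374 and 0.826); both were below 0 with spike-in scaling (-0.17 and -0.22), where Prkra was called lower (adjusted p = 0.0434). Ddx5, a helicase of the Drosha complex, had 2 probes past the threshold in opposite directions, -0.21 with A_51_P394065 and 0.42 with A_52_P611798 (adjusted p = 0.0296 and 0.00582). The fall was -0.44 with spike-in scaling (adjusted p = 0.00821). It was lost with median centring (-0.19, adjusted p = 0.0538) and under the slide block (-0.11, adjusted p = 0.207). The rise was lost with spike-in scaling (0.18, adjusted p = 0.131) and under the slide block (0.32, adjusted p = 0.0541).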
